A study of Homo sapiens with 12 samples.

Results

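The transcripts of the mitochondrial genome were measured in the human lens epithelial line HLE-B3, an immortalized line, as wild-type (WT) cells and as cells with the autophagy gene ATG7 knocked out. The members were chosen by name: all 37 genes of the count table whose symbol starts with MT-, out of 58735 genes in all. They comprised 13 protein-coding genes, 2 rRNA genes and 22 tRNA genes, and no other gene of the table was placed on the mitochondrial chromosome. The 12 RNA-seq libraries fell into 4 groups of 3 biological replicates, namely untreated WT, WT in hydrogen peroxide (H2O2), untreated ATG7 KO, and ATG7 KO in H2O2. Treated cells had 200 μM H2O2 for 12 h, untreated cells were labelled 0 h, and all cells grew in DMEM/F12 with 10% FBS. No untreated group was labelled 12 h, so that in every comparison of treated with untreated cells H2O2 and time cannot be told apart. The knockout was made with CRISPR/Cas9 and puromycin selection, individual clones were picked, and which clone or clones gave the libraries was not given in the sources used here, so that ATG7 loss and a difference between clones cannot be told apart.

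Library totals ranged from 15602183 to 17659496 counted reads. ATG7 mRNA did not fall in the knockout: the log2 difference from WT was 0.47 ± 0.12 (SE) untreated and 0.15 ± 0.09 in H2O2, neither called, and 0.43 and called higher untreated without the library that stood apart. Cas9 edits need not lower mRNA, so the counts do not check the deletion. Of 14 lens epithelium markers, 7 stayed under 1 FPKM (a level scaled for gene length and library size) in every library, namely CRYAA, FOXE3, MAF, PITX3, PROX1, SIX6 and SOX2, while VIM, CDH2, GJA1 and SIX3 were at 1 or more throughout, and 13 of 14 lens fibre markers stayed under 1 FPKM. Of 8 fibroblast markers, whose summed level was 633 to 665 FPKM in untreated WT, 277 to 295 in WT in H2O2, 372 to 523 in untreated ATG7 KO and 258 to 267 in ATG7 KO in H2O2, COL3A1, DCN and PDGFRA stayed under 1 FPKM. Nearly all of that sum was COL1A1 (a mean of 626 FPKM in untreated WT), and LUM, the proteoglycan lumican, had means of 0.168 FPKM in untreated WT and 0.129 in WT in H2O2 against 9.52 and 3.93 in ATG7 KO. PDGFRB and TWIST1 had means of 4.42 and 9.26 FPKM in untreated WT and 6.34 and 10.5 in untreated ATG7 KO, and the part of these genes in the results was not tested. Untreated ATG7 KO replicate 1 stood apart from its group, with a mean correlation of 0.974 with the other replicates against 0.983 for each of these, and counts of calls and fold changes that use untreated ATG7 KO cells are therefore also given without it. In bulk samples such as these, fewer cells of a type and less RNA per cell cannot be told apart, and all values are relative to the other RNA of the library.

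Human mitochondrial DNA is a small circle read from promoters in its control region as long precursors of both strands. One strand carries the rRNAs, most tRNAs and nearly all mRNAs, while the other carries MT-ND6 and a minority of the tRNAs. The tRNAs sit between the longer genes like punctuation, and their excision by RNase P and ELAC2 releases the rRNAs and mRNAs. All encoded proteins are subunits of oxidative phosphorylation: MT-ND genes of complex I, MT-CYB of complex III, MT-CO genes of complex IV and MT-ATP genes of complex V. The rRNAs and tRNAs build the mitochondrial ribosome and its decoding machinery, and the lens epithelium is the layer of the lens that keeps its mitochondria.

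The rRNAs and the tRNA genes MT-TV and MT-TL1 beside them are described at length below, so the stretches where they meet are shown first (GENCODE release 29 transcripts, GRCh38, chromosome MT, plus strand, 5′ to 3′). All 37 members matched that annotation by identifier and length. MT-RNR1 (12S rRNA, bases 648 to 1601), MT-TV (tRNA for valine, 1602 to 1670) and MT-RNR2 (16S rRNA, 1671 to 3229) follow each other without a gap, and MT-TL1 (a leucine tRNA, 3230 to 3304) follows MT-RNR2 directly. In these lines the tRNA is in capitals and the rRNA that touches it is in lower case.
MT-TV, chrM:1582-1690: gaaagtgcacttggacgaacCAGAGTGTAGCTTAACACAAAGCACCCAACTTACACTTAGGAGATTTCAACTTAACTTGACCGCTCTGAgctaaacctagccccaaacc
MT-TL1, chrM:3210-3304: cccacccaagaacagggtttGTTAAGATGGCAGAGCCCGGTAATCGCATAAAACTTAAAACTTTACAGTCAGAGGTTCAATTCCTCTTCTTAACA

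There are also pairs of mRNAs that share bases and are carried on a joint transcript: MT-ATP8 overlaps MT-ATP6 by 46 bases and MT-ND4L overlaps MT-ND4 by 7, while MT-ATP6 and MT-CO3 share 1 base. How reads in an overlap were counted was not given in the sources used here, so the level of the short MT-ATP8 (207 bases) is uncertain. The shared bases are in capitals in these lines.
MT-ATP8 and MT-ATP6, chrM:8507-8592: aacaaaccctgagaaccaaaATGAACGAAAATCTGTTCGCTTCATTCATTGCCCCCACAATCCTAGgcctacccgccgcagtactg
MT-ND4L and MT-ND4, chrM:10740-10786: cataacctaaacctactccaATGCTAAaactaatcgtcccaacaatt

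Among the 13 mRNAs, 7 have an annotated length of whole codons and 6 end 1 or 2 bases into their stop codon, which the poly(A) tail completes in the mature mRNA. The GC content ran from 39.6% in MT-ATP8 to 47.7% in MT-ND1 among the mRNAs, and was 45.5% in MT-RNR1 and 42.8% in MT-RNR2. MT-ND6 and 8 of the tRNA genes lie on the minus strand.

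The share of all counted reads that fell on members was between 4.49% and 4.97% in untreated WT cells and between 3.54% and 3.90% in WT cells in H2O2. It was between 4.29% and 4.42% in untreated ATG7 KO cells and between 3.16% and 3.27% in ATG7 KO cells in H2O2. The groups did not overlap in any of the 4 pairwise comparisons. On the log2 scale the ratio of mean shares was -0.33 for H2O2 against untreated in WT, -0.45 for the same in ATG7 KO, -0.10 for ATG7 KO against WT untreated and -0.22 for ATG7 KO against WT in H2O2. The last sign depended on the unit: by summed FPKM the ratio was 0.0325, and over the 13 mRNAs alone it was 0.43.

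The total hid opposite changes of rRNA and mRNA. In WT cells the rRNA share was 0.777%, 0.776% and 0.819% untreated and 2.15%, 2.03% and 2.05% in H2O2, while the mRNA share was 4.17%, 3.69% and 3.75% untreated and 1.55%, 1.51% and 1.84% in H2O2. In ATG7 KO cells the rRNA share was 0.758%, 0.654% and 0.650% untreated and 0.970%, 0.944% and 1.05% in H2O2, while the mRNA share was 3.62%, 3.74% and 3.62% untreated and 2.19%, 2.19% and 2.20% in H2O2. For each mRNA read there were 0.205 ± 0.0167 rRNA reads (mean ± SD, n = 3) in untreated WT, 1.28 ± 0.146 in WT in H2O2, 0.188 ± 0.0186 in untreated ATG7 KO and 0.451 ± 0.0235 in ATG7 KO in H2O2. The 2 rRNAs thus made up 55.9% ± 2.91 of all member reads in WT cells in H2O2, against 30.8% ± 1.11 in ATG7 KO cells in H2O2.

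**Figure D1:**
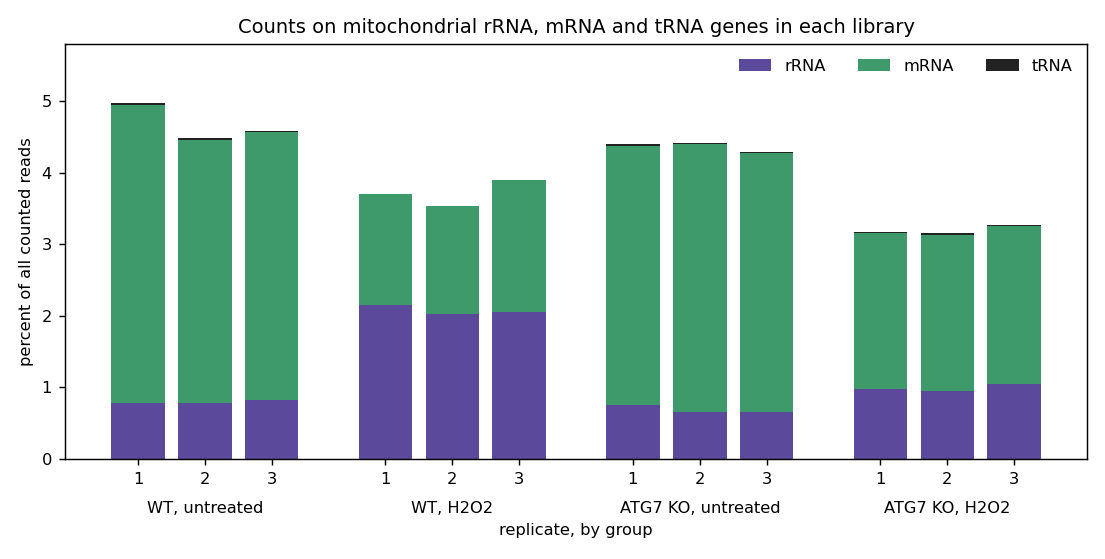
Stacked bars give, for each of the 12 libraries, the percent of all counted reads on mitochondrial rRNA (purple), mRNA (green) and tRNA genes (black). The rRNA part is 2.03% to 2.15% in WT cells in H2O2 and at most 1.05% in every other library.

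In WT cells in H2O2 the rRNAs were higher, and every mRNA of the mitochondrial genome was lower, than in untreated WT cells. A call means that edgeR gave an adjusted p under 0.01 with all genes tested together, and 27 members passed the filter on low counts here. Of these, 3 rose and 20 fell, where 30.9% of all genes tested rose and 30.1% fell. The 3 that rose were MT-RNR1, MT-RNR2 and MT-TV, the tRNA between them, and the 20 that fell were all 13 mRNAs and 7 tRNA genes. The median log2 fold change was -1.16 over the members tested and -0.01 over all genes tested.

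MT-RNR1, the RNA of the small mitochondrial ribosomal subunit, had 602, 623 and 624 FPKM in untreated WT cells and 4899, 4700 and 4428 FPKM in H2O2. The lowest treated library was far above the highest untreated library, and the log2 fold change was 2.92 ± 0.04 (SE, adjusted p = 1.77e-44), 7.56-fold. MT-RNR2, the RNA of the large subunit, had 4492, 4346 and 4734 FPKM untreated and 10850, 10303 and 10492 in H2O2, a log2 fold change of 1.22 ± 0.04 (adjusted p = 2.75e-31). The rise of MT-RNR1 was the larger, so that the ratio of MT-RNR1 to MT-RNR2 per length went from 0.136 ± 0.00611 (SD, n = 3) to 0.443 ± 0.0185 without overlap.

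Some other classes of transcripts without a long poly(A) tail also took a larger share of reads in treated WT cells and others did not, and their part in the rRNA result was not tested. The share of reads on snoRNA genes was 0.00234% to 0.00283% in untreated WT and 0.00425% to 0.00472% in WT in H2O2, and that on snRNA genes went from a range of 0.00178% to 0.00235% to one of 0.00273% to 0.00285%. The snoRNA share of ATG7 KO cells was 0.00217% to 0.00279% untreated and 0.00363% to 0.00385% in H2O2, and their snRNA share was 0.000886% to 0.00195% and 0.00233% to 0.00267%. Clustered histone genes took 0.00619% to 0.00694% in untreated WT cells and 0.00786% to 0.00821% in H2O2, but 0.00810% to 0.00966% in untreated ATG7 KO cells and 0.00641% to 0.00702% in H2O2. The shares of scaRNA genes (8.68e-05% to 0.000141% untreated and 0.000110% to 0.000192% in H2O2) and of nuclear rRNA genes (4.01e-05% to 5.30e-05% and 3.85e-05% to 6.95e-05%) overlapped between the WT groups, and the share of the mitochondrial tRNAs, which also lack a long tail, had a mean of 0.0206% untreated and 0.00897% in H2O2. These classes were chosen for display after their values were seen.

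The mRNAs of WT cells fell by different amounts. MT-ND1, a core subunit of complex I, had 1640, 1499 and 1479 FPKM untreated and 1226, 1200 and 1274 in H2O2, the smallest fall of the 13 (log2 fold change -0.32 ± 0.04, adjusted p = 1.42e-09). MT-ND2 of the same complex followed with -0.57 ± 0.08. MT-ATP6, the proton channel subunit of ATP synthase, fell by 0.76 and MT-ND3 by 0.85 on the log2 scale. The other 9 fell by more than 1 on that scale.

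MT-ATP8, a small subunit of complex V, showed the deepest fall of the mRNAs, with 209, 214 and 210 FPKM untreated and 43.9, 46.1 and 54.2 in H2O2 (log2 fold change -2.14 ± 0.09, adjusted p = 3.41e-26). MT-ND6, the complex I subunit encoded on the minus strand, had 1135, 1013 and 1095 FPKM untreated and 253, 249 and 299 in H2O2 (-2.02 ± 0.06, adjusted p = 1.66e-16). MT-ND5, also of complex I, had 1323, 1187 and 1277 FPKM untreated and 346, 328 and 420 in H2O2 (-1.80 ± 0.11, adjusted p = 6.70e-05). For these 3 genes the treated WT libraries lay far below every untreated one. Treated WT replicate 3 was the highest of its group for these and for every other mRNA, with an mRNA share of 1.84% against 1.55% and 1.51%.

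Complex IV mRNAs were the most abundant mRNAs in untreated WT cells. MT-CO1, the catalytic subunit, had 9109, 7697 and 7980 FPKM untreated and 3076, 3103 and 3547 in H2O2 (-1.35 ± 0.09, adjusted p = 1.33e-05). MT-CO2 fell by 1.47 and MT-CO3 by 1.10 on the log2 scale. MT-CYB, the cytochrome b of complex III, fell by 1.26, and MT-ND4 and MT-ND4L of complex I fell by 1.13 and 1.31.

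**Figure D2:**
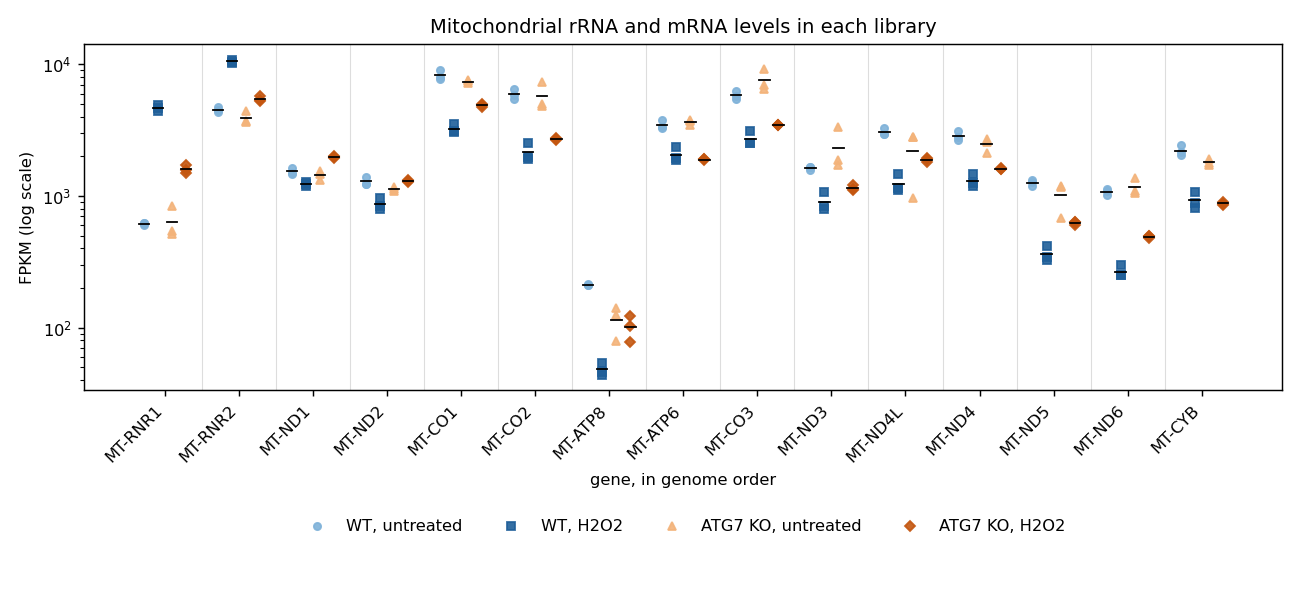
Points give FPKM on a log scale for the 2 rRNAs and 13 mRNAs in genome order, 1 point per library, with a black bar at the mean of the 3 libraries of each group. MT-RNR1 is the single gene of these 15 with more than a 4-fold rise in treated WT cells, and MT-ATP8 has the lowest level in each group.

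The order of levels changed with these shifts. In untreated WT cells MT-CO1 led with 8262 ± 747 FPKM (mean ± SD, n = 3), MT-CO2 and MT-CO3 came next and overlapped each other, MT-RNR2 followed with 4524 ± 196, and MT-RNR1 stood 14th of the 15 rRNAs and mRNAs. In WT cells in H2O2 the rRNAs MT-RNR2 and MT-RNR1 held ranks 1 and 2 without overlap, MT-CO1 had fallen to rank 3 with 3242 ± 265 FPKM, and MT-CO1, MT-CO3 and MT-CO2 each overlapped the next gene in the order, down to MT-ATP6. MT-RNR2 also led in treated ATG7 KO cells, with 5449 ± 293 FPKM, MT-CO1 was second with 4878 ± 88.0, and MT-RNR1 was 9th with 1599 ± 109. MT-ATP8 was last in all groups: per length it was 0.0610 ± 0.00530 of MT-ATP6 in untreated WT cells and 0.0234 ± 0.000928 in WT in H2O2, and 0.0319 ± 0.0101 in untreated ATG7 KO cells and 0.0534 ± 0.0123 in ATG7 KO in H2O2.

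The response of ATG7 KO cells to H2O2 had a rise of MT-RNR1 and falls of 7 mRNAs. Of 28 members tested, 4 rose (13.6% of all genes tested rose) and 9 fell (12.4% of all genes tested fell), so the 4 that rose were near the share of all genes. Without untreated replicate 1, 7 of 30 members rose and 16 fell, beside 29.8% and 28.6% of all genes, and all 13 members called with every library were called the same way. Leaving out other single libraries gave fewer calls: 2 rose and 3 fell without any of the 3 treated ATG7 KO libraries in turn, and 5 fell without untreated replicate 3. The shares of all genes in those fits are not given here, so a change particular to the members cannot be read from these counts.

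MT-RNR1 had 838, 541 and 519 FPKM in untreated ATG7 KO cells and 1576, 1503 and 1717 in H2O2 (log2 fold change 1.33 ± 0.20, adjusted p = 0.00185, and 1.58 ± 0.04 without untreated replicate 1). MT-RNR2 had 4408, 3709 and 3660 FPKM untreated and 5320, 5243 and 5785 in H2O2, a log2 fold change of 0.47 ± 0.12 that was not called (adjusted p = 0.0186). Without untreated replicate 1 it was 0.55 ± 0.03 and was called (adjusted p = 1.77e-44). The treated libraries lay above the untreated ones for both rRNAs.

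MT-ND1 and MT-ND2, the first mRNAs after the rRNAs, did not fall in ATG7 KO cells. MT-ND1 had 1326, 1549 and 1482 FPKM untreated and 2012, 1954 and 1995 in H2O2, with no overlap and a log2 fold change of 0.45 ± 0.11 (adjusted p = 0.0141). MT-ND2 had a log2 fold change of 0.19 ± 0.09 (adjusted p = 0.155). Without untreated replicate 1 both were called higher, by 0.38 ± 0.03 and 0.18 ± 0.03.

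The 7 mRNAs called lower in ATG7 KO cells were MT-ND6 (-1.25 ± 0.12), MT-CO3 (-1.13 ± 0.15), MT-CO2 (-1.08 ± 0.17), MT-CYB (-1.05 ± 0.10), MT-ATP6 (-0.95 ± 0.10), MT-ND4 (-0.62 ± 0.13) and MT-CO1 (-0.61 ± 0.10). Without untreated replicate 1 the values, in the same order, were -1.13 ± 0.03, -0.98 ± 0.03, -0.87 ± 0.03, -1.09 ± 0.03, -0.93 ± 0.03, -0.73 ± 0.03 and -0.63 ± 0.03. MT-ND5, MT-ND3 and MT-ND4L had log2 fold changes of -0.71 ± 0.22, -1.02 ± 0.25 and -0.22 ± 0.38 with all libraries, none of them called, and of -0.93 ± 0.03, -0.68 ± 0.03 and -0.58 ± 0.03 without untreated replicate 1, all called. The library that stood apart had 958 FPKM of MT-ND4L where the other untreated ATG7 KO libraries had 2808 and 2785, and 3348 FPKM of MT-ND3 where they had 1890 and 1734. MT-ATP8 was not called either way in these cells, with 79.1, 126 and 141 FPKM untreated and 77.6, 103 and 123 in H2O2 (-0.20 ± 0.25, and -0.41 ± 0.14 without untreated replicate 1).

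Along the first genes after the control region the response stepped down in WT cells, but not along the whole genome. The log2 fold change stepped down from 2.92 at MT-RNR1 through 2.04 at MT-TV, 1.22 at MT-RNR2 and -0.00 at MT-TL1 to -0.32 at MT-ND1, -0.57 at MT-ND2 and -1.35 at MT-CO1, in the order of the genes, leaving aside MT-TI (0.11 ± 0.44, not called) and the minus strand tRNA genes between them. In ATG7 KO cells without untreated replicate 1 it was 1.58 at MT-RNR1, 0.55 at MT-RNR2, 0.38 at MT-ND1, 0.18 at MT-ND2 and -0.63 at MT-CO1, but the tRNAs MT-TV (3.01) and MT-TL1 (1.11) lay above the genes on either side. From MT-CO1 on there was no single direction: in WT, MT-ATP6, MT-ND3 and MT-ND4 lay above MT-CO2, and MT-ND5 lay below them. Over the 12 mRNAs of the plus strand, Pearson's r between the log2 fold change and the distance from the start of MT-RNR1 was -0.47 in WT and -0.63 in ATG7 KO (-0.79 without untreated replicate 1), with Spearman's rho of -0.33, -0.48 and -0.66. Without the short MT-ATP8, Pearson's r was -0.64 in WT (n = 11) and -0.63 in ATG7 KO. These points share their libraries and their precursor RNA, so they are a description of these libraries.

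Per length, MT-ND1 was 1.22 ± 0.0548 times MT-ND5 in untreated WT cells and 3.41 ± 0.331 times in H2O2 (mean ± SD, n = 3). The ratio in ATG7 KO cells was 1.94, 1.30 and 1.26 untreated and 3.32, 3.07 and 3.15 in H2O2, so the treated groups of both lines lay above all untreated libraries. The range of this ratio in treated WT cells (3.03 to 3.65) held that in treated ATG7 KO cells (3.07 to 3.32), whereas the ranges of the ratio of rRNA to mRNA reads did not overlap between them.

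**Figure D3:**
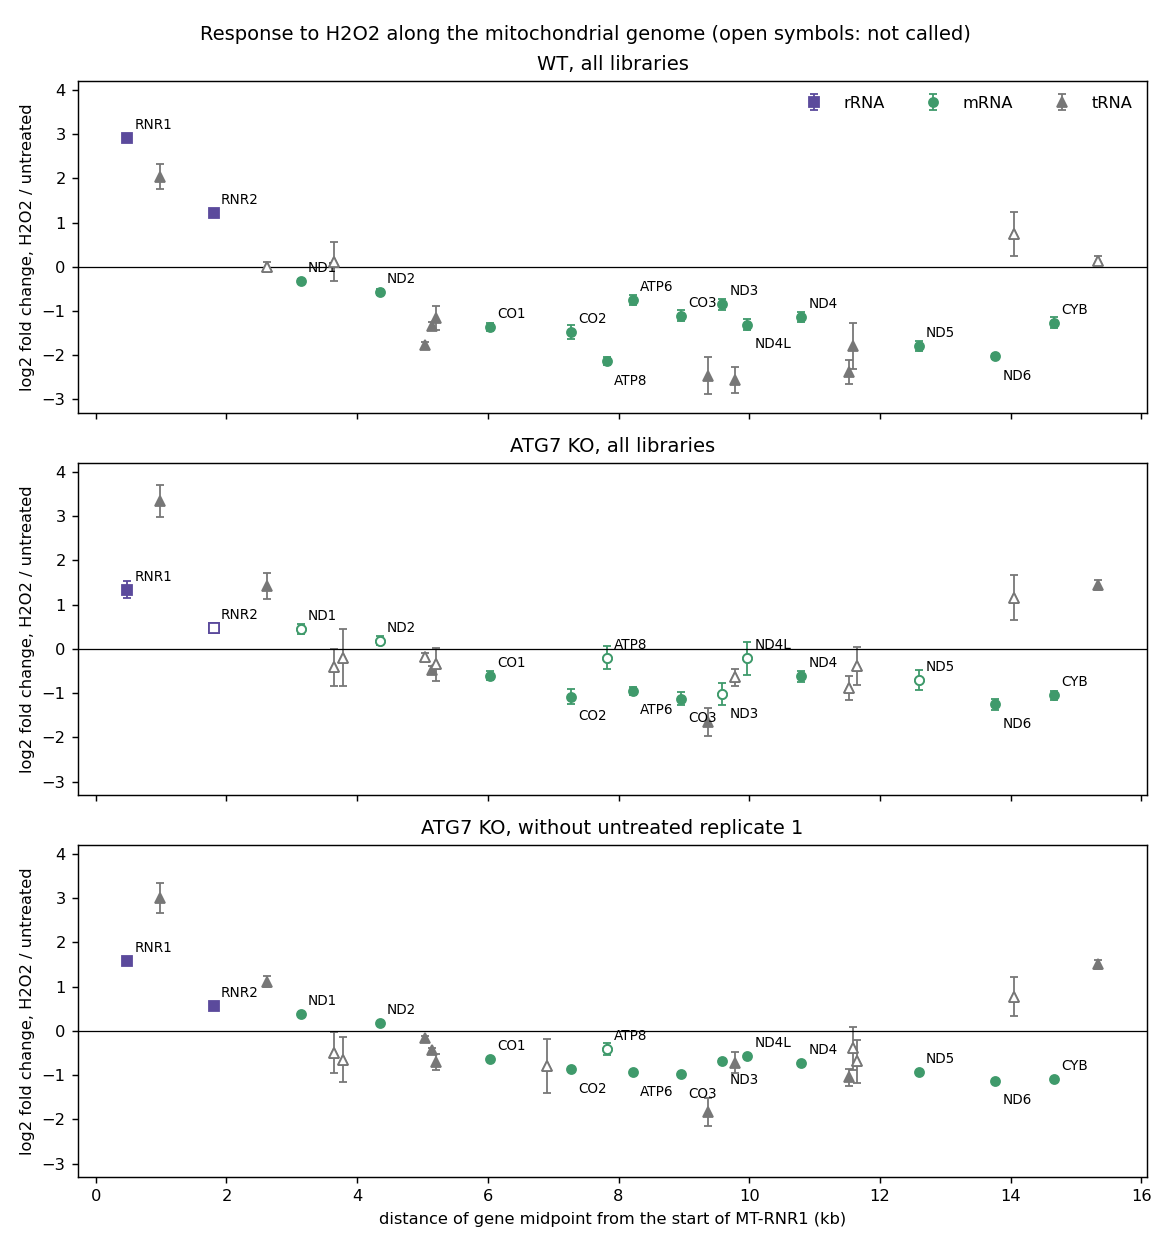
Log2 fold change of H2O2 against untreated (points, error bars are the standard error) plotted by distance of each gene's midpoint from the start of MT-RNR1 in kb, for WT, for ATG7 KO, and for ATG7 KO without untreated replicate 1. Filled symbols were called at adjusted p under 0.01; WT values go from 2.92 at MT-RNR1 to -2.56 at MT-TR.

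Reads on tRNA genes were few, 0.0201% to 0.0209% of the total in untreated WT libraries, and 15 of the 22 tRNA genes passed the filter in at least 1 comparison with all libraries. The other 7 (MT-TF, MT-TQ, MT-TW, MT-TA, MT-TS1, MT-TK and MT-TT) had at most 16 reads in any library. The strand setting of the counting was not given in the sources used here, so reads of a tRNA gene and of the opposite strand cannot be told apart, and neither can mature tRNA and uncut precursor. Between WT groups the tRNA share fell from 0.0201-0.0209% to 0.00865-0.00950%, while in ATG7 KO cells it was 0.0209% to 0.0235% untreated and 0.0204% to 0.0208% in H2O2.

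MT-TV and MT-TL1, the tRNA genes on either side of MT-RNR2, were called lower in neither line. MT-TV had 18, 11 and 15 reads in untreated WT libraries and 68, 54 and 47 in H2O2 (log2 fold change 2.04 ± 0.29, adjusted p = 2.23e-08), and 3, 7 and 11 reads in untreated ATG7 KO libraries and 61, 63 and 84 in H2O2 (3.34 ± 0.36, adjusted p = 0.000485, and 3.01 ± 0.34 without untreated replicate 1). MT-TL1, on the far side of MT-RNR2, had 182, 153 and 128 FPKM in untreated WT and 149, 154 and 160 in H2O2, with groups that overlapped. The ATG7 KO libraries had 46.1, 106 and 104 FPKM untreated and 215, 223 and 252 in H2O2 (1.41 ± 0.30, adjusted p = 0.00812, and 1.11 ± 0.12 without untreated replicate 1).

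Of the 12 tRNA genes tested in WT cells, 7 fell, MT-TV rose and 4 were not called, where 30.1% of all genes fell and 30.9% rose. Of 13 tested in ATG7 KO cells 3 rose and 2 fell, where 13.6% of all genes rose and 12.4% fell, so the 2 were near that share. Without untreated replicate 1, 3 of 15 rose and 6 fell, beside 29.8% and 28.6% of all genes. MT-TR, between MT-ND3 and MT-ND4L, had 65, 71 and 63 reads in untreated WT and 10, 10 and 11 in WT in H2O2 (-2.56 ± 0.29, adjusted p = 6.40e-11). MT-TG, MT-TH, MT-TS2 and MT-TY fell by 2.46, 2.37, 1.79 and 1.16 on the log2 scale in WT. The 4 not called there were MT-TL1, MT-TI, MT-TP and MT-TE, a minus strand gene between MT-ND6 and MT-CYB that had 0.74 ± 0.49 in WT (adjusted p = 0.174) and 1.15 ± 0.51 in ATG7 KO (adjusted p = 0.108, and 0.77 ± 0.44 without untreated replicate 1). MT-TG was also called lower in ATG7 KO cells (-1.64 ± 0.32, and -1.83 ± 0.32 without untreated replicate 1), while MT-TR (-0.65 ± 0.20, adjusted p = 0.0345) and MT-TH (-0.88 ± 0.27, adjusted p = 0.0332) were not called with all libraries and were called lower without untreated replicate 1, at -0.72 ± 0.24 and -1.05 ± 0.19. MT-TY had -0.35 ± 0.37 in ATG7 KO and was called lower without that library (-0.70 ± 0.18), and MT-TI was not called in either case (-0.42 ± 0.43 and -0.49 ± 0.46). MT-TM (-0.20 ± 0.64) and MT-TL2 (-0.39 ± 0.43), tested in ATG7 KO and not in WT, were not called, nor were they without untreated replicate 1 (-0.65 ± 0.51 and -0.69 ± 0.49), and MT-TD passed the filter with all libraries in the interaction fit alone (1.64 ± 1.18, adjusted p = 0.310). These 3 had at most 18 reads in any library.

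The most read tRNA genes lie on the minus strand, close together between MT-ND2 and MT-CO1. MT-TN, for asparagine, had 1764, 1825 and 1722 reads in untreated WT, 458, 411 and 572 in WT in H2O2, 1602, 1583 and 1808 in untreated ATG7 KO and 1438, 1371 and 1466 in ATG7 KO in H2O2. It fell by 1.78 on the log2 scale in WT (adjusted p = 2.48e-27), while in ATG7 KO the value was -0.18 ± 0.08 (adjusted p = 0.134), and -0.16 ± 0.05 and called lower without untreated replicate 1 (adjusted p = 0.00159). MT-TC, for cysteine, fell in both lines, by 1.33 in WT and 0.48 in ATG7 KO (0.44 without untreated replicate 1). MT-TP, the minus strand tRNA gene next to the control region, rose in the knockout from 193, 175 and 161 FPKM to 484, 516 and 441 (1.44 ± 0.11, adjusted p = 0.000128, and also called higher without untreated replicate 1, adjusted p = 1.68e-40) and overlapped between groups in WT (0.14 ± 0.10).

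**Figure D4:**
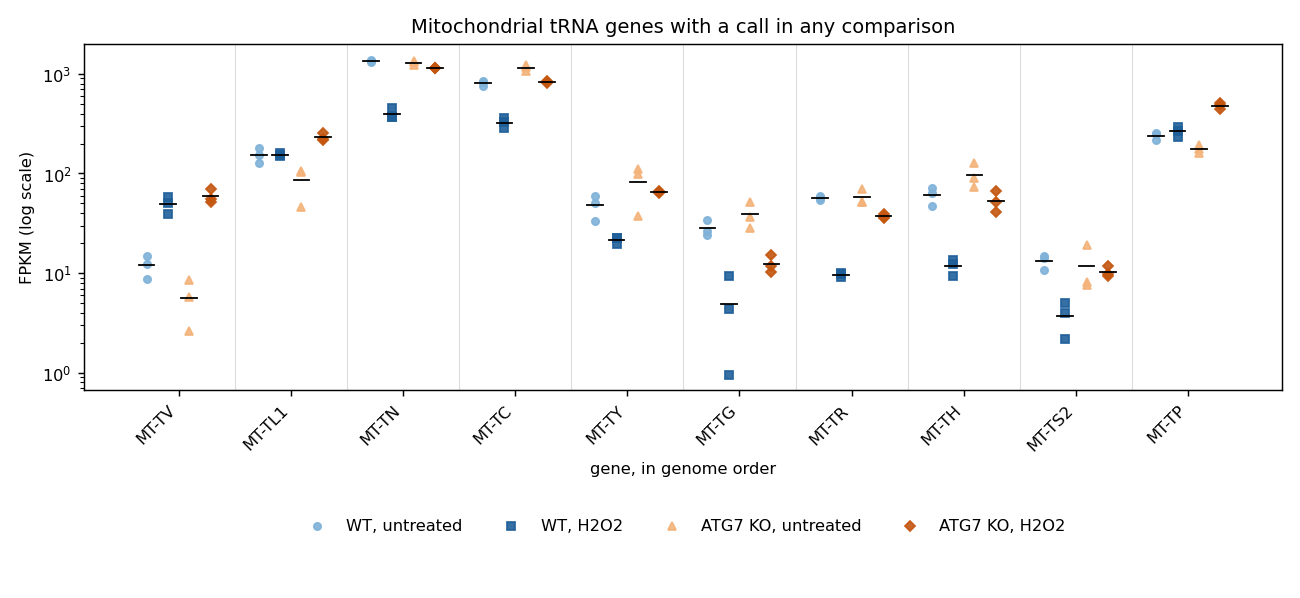
Points give FPKM on a log scale for the 10 tRNA genes called in at least 1 comparison, in genome order, 1 point per library, with a black bar at the mean of the 3 libraries of a group. MT-TN lies at 366 to 456 FPKM in treated WT libraries and at 1143 or more in all others.

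Compared directly under H2O2, ATG7 KO cells had less mitochondrial rRNA and more of several mRNAs than WT cells. Of 27 members tested, 13 were higher (27.7% of all genes tested were) and 2 were lower (27.9% of all genes tested). The 2 lower members were the rRNAs: MT-RNR1 by 1.56 ± 0.05 and MT-RNR2 by 0.96 ± 0.03 on the log2 scale (adjusted p = 1.19e-11 and 2.03e-19). The 13 higher members were 6 mRNAs and 7 tRNA genes. Without treated WT replicate 3, 19 members were higher and 2 lower, so members not called with all libraries may depend on that library. The share of all genes in that fit is not given here.

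The 6 mRNAs were MT-ATP8 (1.06 ± 0.14), MT-ND6 (0.87 ± 0.05), MT-ND5 (0.77 ± 0.11), MT-ND1 (0.68 ± 0.03), MT-CO1 (0.58 ± 0.05) and MT-ND2 (0.57 ± 0.06). The other 7 mRNAs were not called: MT-ND4L had 0.60 ± 0.13 (adjusted p = 0.0130), MT-CO2, MT-CO3, MT-ND3 and MT-ND4 had 0.30 to 0.34, and MT-ATP6 and MT-CYB had -0.13 ± 0.09 and -0.09 ± 0.12. Of the tRNA genes, MT-TH (2.16 ± 0.28), MT-TR (1.93 ± 0.31), MT-TY (1.59 ± 0.22), MT-TN (1.52 ± 0.06) and MT-TC (1.36 ± 0.07) were more than 2-fold higher, and MT-TP and MT-TL1 were higher by 0.85 ± 0.09 and 0.57 ± 0.10. Among the 6 minus strand members tested, 5 were higher in ATG7 KO cells, where 27.7% of all genes were higher.

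The difference between the responses of the lines was tested with an interaction term over all 12 libraries. Of 30 members tested, 11 had a more positive response in ATG7 KO than in WT (7.02% of all genes tested did) and 2 a more negative one (7.01% of all genes tested). The 2, a count near that share, were MT-RNR1 (-1.59 ± 0.21, adjusted p = 0.000284) and MT-RNR2 (-0.75 ± 0.13, adjusted p = 0.00126). The mRNAs with a more positive response were MT-ATP8 (1.94 ± 0.28), MT-ND5 (1.09 ± 0.24), MT-ND1 (0.77 ± 0.11), MT-ND6 (0.77 ± 0.15), MT-ND2 (0.76 ± 0.12) and MT-CO1 (0.75 ± 0.13). Those of MT-CO2, MT-CO3, MT-ATP6, MT-ND3, MT-ND4, MT-ND4L and MT-CYB were not called, with values from -0.19 to 1.10. Without untreated ATG7 KO replicate 1, 13 of 31 members were more positive and 2 more negative, beside 17.8% and 16.3% of all genes, and all 13 members called with every library were called the same way. MT-RNR1 and MT-RNR2 were then at -1.33 ± 0.06 and -0.65 ± 0.05, MT-ATP8 at 1.74 ± 0.16, MT-ND5 at 0.88 ± 0.13, MT-ND1 at 0.72 ± 0.05, MT-ND6 at 0.90 ± 0.08, MT-ND2 at 0.76 ± 0.12 and MT-CO1 at 0.73 ± 0.11. MT-ND4L (0.74 ± 0.15) and MT-TH (1.33 ± 0.34) were called in that case too. MT-TY, higher in ATG7 KO in H2O2, was not called in the interaction with all libraries (0.81 ± 0.49, adjusted p = 0.227). Without untreated replicate 1 it was not called either (0.47 ± 0.31).

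**Figure D5:**
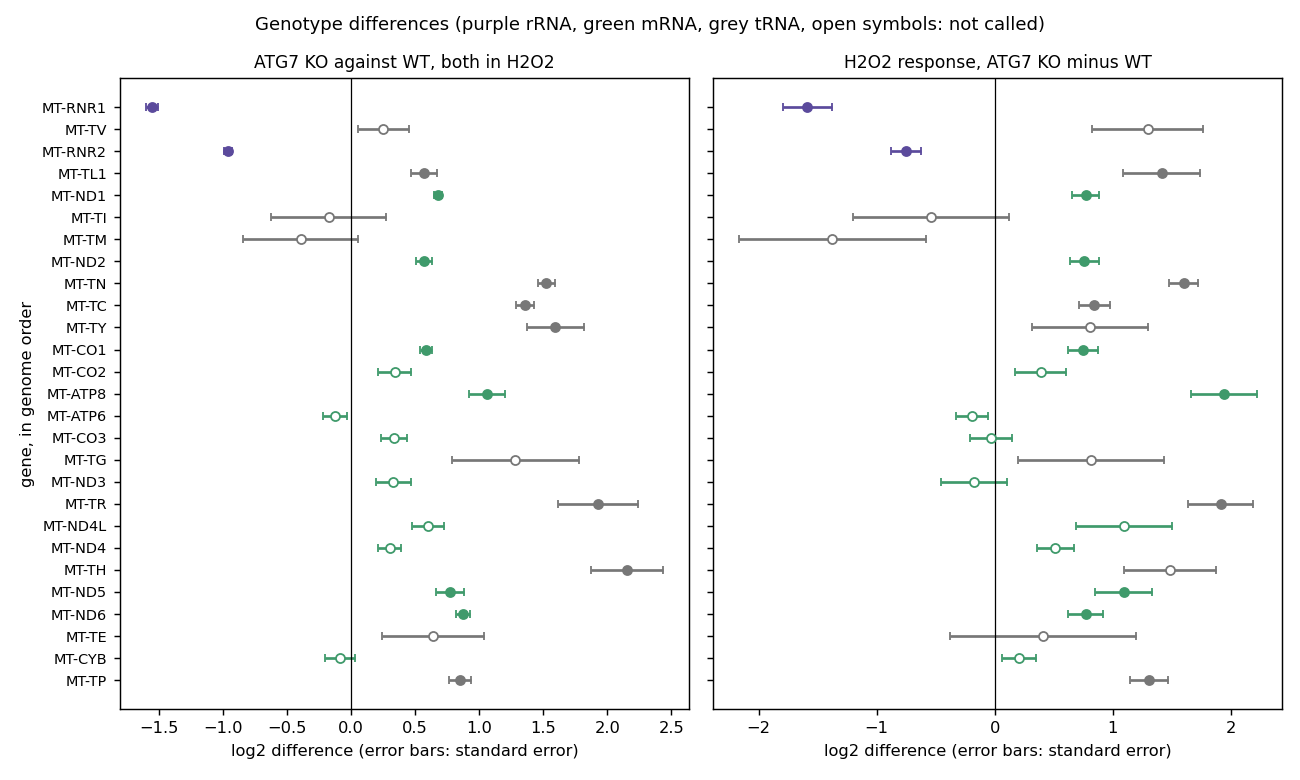
Left, log2 difference of ATG7 KO from WT with both in H2O2; right, log2 difference between the H2O2 responses of ATG7 KO and WT; points with standard errors, filled where called, for the 27 members tested in the left comparison. Both rRNAs lie to the left of zero in both panels, and the called mRNAs and tRNA genes lie to the right.

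Between untreated ATG7 KO and untreated WT cells no member was called when all libraries were used. edgeR called 0 of 28 members higher and 0 lower, beside 4.42% and 3.28% of all genes, and at an unadjusted p under 0.05 the counts were 3 and 4. DESeq2 called 1 higher and 1 lower, and limma on log2(FPKM + 1) called 0 in each direction. The shares of all genes at the unadjusted p and in these other fits are not given here. Without replicate 1 of untreated ATG7 KO, 5 of 31 members were higher and 9 lower, beside 18.2% and 17.9% of all genes. MT-RNR1 was at 0.04 ± 0.19 with all libraries and at -0.21 ± 0.04 without that library (adjusted p = 7.81e-06). Then MT-ATP8 was lower by 0.65 ± 0.08, MT-RNR2 by 0.29 ± 0.04 and MT-CO2 by 0.26 ± 0.05, and MT-CO3 was higher by 0.21 ± 0.04. Of the tRNA genes, MT-TY (1.14 ± 0.20), MT-TH (0.84 ± 0.18) and MT-TC (0.47 ± 0.06) were called higher without that library. MT-TL1 (-0.54 ± 0.14) and MT-TP (-0.51 ± 0.12) were called lower. The values of untreated libraries that bear on MT-ATP8 were 209, 214 and 210 FPKM in WT against 79.1, 126 and 141 in ATG7 KO, with no overlap.

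Nuclear copies of mitochondrial genes share sequence with some members. Of the 37 members, 6 (MT-ND1, MT-ND2, MT-CO1, MT-CO2, MT-ATP6 and MT-CO3) had a window of 100 bases that was identical in a transcript annotated to a nuclear gene, from 2.39% of windows in MT-CO2 to 27.9% in MT-CO1, and both rRNAs and the other 7 mRNAs had none. Only annotated transcripts were searched, not the whole genome, and how reads with several matches were treated was not given in the sources used here. The copies in question lie on chromosome 1. MTND2P28 carried 5.02% to 10.5% as many reads as MT-ND2 and MTATP6P1 carried 7.21% to 11.1% as many as MT-ATP6. Adding the reads of nuclear copies to the members they are named after left the counts of calls unchanged in every comparison. They stayed at 13 higher and 2 lower between the lines in H2O2, and at 3 and 20 for H2O2 in WT. That fit cannot show from which copy a shared read came.

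MTND1P23 (chromosome 1, 629062 to 629433), which matched the end of MT-ND1 at 95.4% of 371 bases, differed between the lines. It had 19, 18 and 22 reads in untreated WT, 29, 12 and 19 in WT in H2O2, 286, 207 and 200 in untreated ATG7 KO and 246, 280 and 267 in ATG7 KO in H2O2. The lowest ATG7 KO library thus lay above every WT library, with a log2 difference of 3.58 untreated (3.35 without ATG7 KO replicate 1) and 3.67 in H2O2, both called. It amounted to at most 1.37% of the reads on MT-ND1 in any library.

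Of 9 nuclear genes for transcription of mitochondrial DNA, 3 rose and 1 fell in WT cells, where 30.9% of all genes tested rose and 30.1% fell, so the share that rose was near that of all genes. TFB2M, which opens the promoter for the polymerase, rose by 1.14 ± 0.08, TFAM, which packages and activates the DNA, by 0.86 ± 0.05, and MRPL12, a mitochondrial ribosomal protein named here outside the rule after its values were seen, by 0.90 ± 0.13. MTERF2, a protein of the termination factor family, was the 1 that fell (-1.16 ± 0.13). A single gene of the list was called in ATG7 KO cells, MTERF2 at -1.03 ± 0.16, and without untreated replicate 1, when it was at -1.01 ± 0.14, the counts were 4 higher and 1 lower, beside 29.8% and 28.6% of all genes. The responses of TFB2M (-1.24 ± 0.17, adjusted p = 0.000377) and TFAM (-0.48 ± 0.11, adjusted p = 0.00547) were more negative in ATG7 KO than in WT, and were -1.09 ± 0.12 and -0.41 ± 0.07 without that library. POLRMT, the polymerase itself, likewise named outside the rule, had -0.05 ± 0.06 in WT and 0.12 ± 0.09 in ATG7 KO, neither called, and 0.16 ± 0.06 without untreated replicate 1, which was called. The list's median in WT was -0.05, beside -0.01 over all genes.

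Of 16 genes for replication and maintenance of mitochondrial DNA, 7 rose and 5 fell in WT cells, beside 30.9% and 30.1% of all genes. RRM2B, a ribonucleotide reductase subunit, rose by 1.86 ± 0.05 in WT and by 2.79 ± 0.09 in ATG7 KO (2.76 ± 0.04 without untreated replicate 1), and TWNK, the replicative helicase, rose by 1.26 ± 0.08 in WT and had -0.05 ± 0.10 in ATG7 KO (-0.03 ± 0.08 without that library). The responses of both differed between the lines, by 0.93 ± 0.10 for RRM2B and -1.31 ± 0.14 for TWNK, or 0.91 ± 0.07 and -1.27 ± 0.11 without it. Of 20 genes for mitochondrial RNA processing and stability, 8 rose and 5 fell in WT, and in ATG7 KO 2 rose and 1 fell with all libraries (13.6% and 12.4% of all genes), or 8 and 4 without untreated replicate 1 (29.8% and 28.6% of all genes). LRPPRC, which stabilizes mitochondrial mRNAs, had a response 0.44 ± 0.10 more positive in ATG7 KO (adjusted p = 0.00534, and 0.51 ± 0.06 without that library). FASTKD5 rose by 0.78 ± 0.07 and FASTKD1 fell by 0.72 in WT. Of 16 genes for mitochondrial RNA modification, 4 rose and 4 fell in WT, with MTO1, a tRNA modifying enzyme, highest at 0.85 ± 0.07 and TFB1M, the 12S rRNA methyltransferase, lowest at -0.67 ± 0.11. The 4 and 4 of 16 in WT lie under the shares of all genes, while the 7 of 16 and 8 of 20 that rose lie over their share, which was not tested.

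Nuclear genes of the same respiratory complexes were counted beside 30.9% of all genes that rose and 30.1% that fell in WT cells. In WT cells in H2O2, 14 of 37 genes of complex I rose and 5 fell, 4 of 9 of complex III rose and 1 fell, 8 of 11 of complex IV rose and 1 fell, and 7 of 15 of complex V rose and 1 fell, with list medians of 0.13, 0.13, 0.25 and 0.18 beside -0.01 over all genes, while all 13 mitochondrial mRNAs fell. COX8A of complex IV rose by 1.10 ± 0.05 and NDUFA7 of complex I fell by 1.51 ± 0.44, from a low mean of 0.776 FPKM to 0.271. With both lines in H2O2, where 27.7% of all genes were higher in ATG7 KO and 27.9% lower, 18 of 36 tested complex I genes were lower in ATG7 KO and 3 higher, 6 of 9 of complex III were lower and 1 higher, and 6 of 11 of complex IV and 11 of 15 of complex V were lower with none higher. NDUFV2 (1.22 ± 0.21) and NDUFS7 (-1.01 ± 0.10) were the extremes in complex I, and ATP5MC1 (-0.91 ± 0.05) was the lowest in complex V. In the response of ATG7 KO cells, list medians ran from -0.62 in complex V to -0.44 in complex III with all libraries and from -0.20 to -0.01 without untreated replicate 1. Without that library 29.8% of all genes rose and 28.6% fell. The counts were then 5 higher and 12 lower of 36 in complex I and 0 and 5 of 9 in complex III. They were 2 and 3 of 11 in complex IV and 0 and 9 of 15 in complex V. Their differences from the shares of all genes were not tested.

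Of 18 genes for the outer membrane, protein import and the matrix, 14 rose and 1 fell in WT cells in H2O2, beside 30.9% and 30.1% of all genes, with a median of 0.33. HSPE1, a matrix chaperonin, was highest at 0.95 ± 0.08 and CS, citrate synthase, was the gene that fell, by 0.40. HSPA9 (0.71 ± 0.13) was the 1 gene of these called in ATG7 KO cells, and without untreated replicate 1, when it was at 0.84 ± 0.03, the counts were 10 higher and 2 lower, beside 29.8% and 28.6% of all genes. Of 15 mitophagy genes tested, 3 rose and 7 fell in WT, with SQSTM1 (p62) highest at 0.66 ± 0.04 and USP30, a deubiquitinase that opposes mitophagy, lowest at -1.22. Among the 9 tested regulators of mitochondrial genes in the nucleus, 4 rose and 2 fell in WT, led by the coactivator PPARGC1B (2.71 ± 0.45) and the receptor ESRRA (1.60 ± 0.08), and ESRRA rose by 1.48 ± 0.09 in ATG7 KO (1.47 ± 0.07 without untreated replicate 1). PPARGC1B was hardly detected, with means of 0.0175 FPKM in untreated WT and 0.117 in WT in H2O2. The counts for mitophagy and regulators are of few genes. The 3 of 15 and 2 of 9 lie under the shares of all genes, while the 7 of 15 and 4 of 9 lie over them, which was not tested.

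The other lists were compared between the lines in H2O2, where 27.7% of all genes were higher and 27.9% lower in ATG7 KO. Of the genes for the outer membrane, import and matrix, 2 were higher and 10 lower in ATG7 KO than in WT, with TIMM44, an import motor protein, lowest at -0.84 ± 0.06. The counts were 5 higher and 9 lower of 20 for RNA processing, 5 and 3 of 16 for RNA modification, 5 and 5 of 16 for replication, 1 and 3 of 9 for transcription, 3 and 5 of 15 for mitophagy and 3 and 4 of 9 for the regulators, and the differences of these counts from the shares of all genes were not tested. Between untreated lines 4.42% of all genes were higher in ATG7 KO and 3.28% lower with all libraries. The 3 list genes called there are too few for a result about the lists. They were PINK1, the kinase that starts mitophagy on damaged mitochondria (0.83 ± 0.11, or 0.91 ± 0.05 without ATG7 KO replicate 1), PRORP, the nuclease subunit of mitochondrial RNase P (0.73 ± 0.12, or 0.83 ± 0.10), and LONP1, a matrix protease (-0.80 ± 0.11, or -0.88 ± 0.05). Without untreated ATG7 KO replicate 1, 18.2% of all genes were higher and 17.9% lower, and the counts were 5 higher and 7 lower of 37 in complex I, near or under those shares, and 4 and 6 of 15 in mitophagy. In complex III (9 genes), complex IV (11) and complex V (15) the counts were 4 higher and 1 lower each. Those 4 lie over the share of all genes that were higher, which was not tested.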

How the data were processed

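Cells were lysed in Trizol, total RNA was extracted, and libraries were made with the NEBNext Ultra RNA kit. Per the labels and the submitters' processing notes, reads were aligned to GRCh38 with HISAT2 2.0.5 and counted per gene with featureCounts 1.5.0-p3. The strand setting, the treatment of reads with several matches and any poly(A) selection were not given in the sources used here. The authors deposited raw counts and FPKM per gene for all 12 libraries. The deposited FPKM followed counts per gene length and library total, up to a factor of 0.949 to 1.02 that was constant within a library.

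Counts were tested with edgeR 4.0.16 (filterByExpr with a minimum count of 10, TMM scaling, robust quasi-likelihood fit) on the 6 libraries of each pairwise comparison and on all 12 for the interaction, over all genes, with Benjamini-Hochberg adjustment and calls at adjusted p under 0.01. SE is the log2 fold change divided by the root of F. FPKM values are levels per length. Shares are percent of all counted reads. The procedure was run on simulated counts with the same spread for all genes and no library that stood apart. That run therefore cannot speak for calls that depend on untreated ATG7 KO replicate 1. Alternatives were DESeq2 1.42.0, limma 3.58.1 on log2(FPKM + 1) and log2(FPKM + 0.1), other scalings and filters, all libraries in a joint fit, the replicate number as a block, reads of nuclear copies added to the members, and leaving out each library. All mRNA and rRNA members were named, tRNA genes where they passed the filter, and list genes where called beyond 1 on the log2 scale or as the highest or lowest called gene of a list in any comparison. Members and lists were chosen with earlier results of these data known. Replicates are biological per the study's methods, with no detail of cultures, so p-values measure the spread between these samples. Depth limits the tRNA genes most.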

Additional observations from a re-analysis of the deposited data

Results flagged for a closer look

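The response to H2O2 of 13 members differed between ATG7 KO and WT cells in the interaction test of edgeR over all genes (log2 difference, ATG7 KO minus WT). Of all genes tested, 7.02% had a more positive response in ATG7 KO and 7.01% a more negative one. The response was more negative for MT-RNR1 (-1.59) and MT-RNR2 (-0.75), 2 of 30 members tested, a count near the share of all genes. It was more positive for the mRNAs MT-CO1 (0.75), MT-ND5 (1.09), MT-ND1 (0.77), MT-ND2 (0.76), MT-ND6 (0.77) and MT-ATP8 (1.94), and for the tRNA genes MT-TN (1.60), MT-TC (0.85), MT-TP (1.31), MT-TL1 (1.42) and MT-TR (1.91). All 13 were called the same way without untreated ATG7 KO replicate 1, with -1.33 for MT-RNR1, 1.62 for MT-TN, 0.90 for MT-TC, 1.37 for MT-TP, 1.13 for MT-TL1 and 1.85 for MT-TR. Groups of 3 libraries are too small for a test of single outlying samples.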

How the results depend on the processing

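Scaling and filter choices changed few calls. In untreated cells, where 0 members were called either way, DESeq2 and the fit of all 12 libraries each called 1 higher and 1 lower, the fit without a filter called 1 lower, and leaving out a library gave 0 to 5 higher and 0 to 9 lower, the highest without untreated ATG7 KO replicate 1. Leaving out a library moved MT-RNR1 in untreated cells between -0.21 and 0.16, with the reversed value without that same library. For ATG7 KO against WT in H2O2, it gave 12 to 19 higher, the highest without treated WT replicate 3, and 2 lower each time. For H2O2 in ATG7 KO, leaving out a library gave 2 to 7 higher and 3 to 16 lower. With a replicate block 5 fell, against 9 without it, and the block moved no other count of calls by over 1.5 times. Whether libraries with the same number were handled together was not given in the sources used here. Their deviations correlated between -0.04 and 0.10, which cannot settle it with 3 libraries per group. No count in WT cells moved by over 1.5 times. Among these other settings, the share of all genes is given above for the fits without untreated ATG7 KO replicate 1 alone. For the rest, a change particular to the members cannot be read from the counts. The log2 ratio of shares moved with the unit: by summed FPKM it was 0.0325 for ATG7 KO against WT in H2O2, -0.56 for H2O2 in WT and -0.41 in ATG7 KO, and over mRNAs alone 0.43, -1.24 and -0.74. Of the single gene values under other settings, 71 gained and 85 lost a call and 2486 kept theirs. The single change of direction with a call in either fit was that of MT-RNR1, and 35 values called in neither fit changed sign. The causes were not tested. Depth limits the tRNA genes most, of which 7 were tested in no comparison with all libraries.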
